A study of Mus musculus with 23 samples.

Results

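The 9 genes described here encode the surrogate light chain, the parts of the receptor it joins, and related proteins (Vpreb3, Mzb1 and Iglc1). They are Vpreb1, Vpreb2, Vpreb3, Igll1, Cd79a, Cd79b, Ighm, Mzb1 and Iglc1. They were taken by symbol from the 32285 gene features of 11 droplet gene-expression libraries, and all 9 were measured in each. The cells were bone marrow cells sorted as KSL (c-Kit+ Sca1+ Lineage-), a gate that holds blood stem cells and early multipotent and lymphoid-primed progenitors. Mice carried floxed alleles of Ezh2, the catalytic subunit of Polycomb repressive complex 2, or of Jarid2, a co-factor of that complex, and the study asked how the loss of each differs. Every group used here, Control included, is labelled Mx1-Cre, a Cre recombinase driven by an interferon-responsive promoter. At baseline the mice were untransplanted and 2 months old, and each genotype (Control, Ezh2 KO, Jarid2 KO) had a male library, replicate 1, and a female library, replicate 2. Transplant libraries held CD45.2 donor cells sorted 18 weeks after 500000 donor cells and 500000 CD45.1 competitor cells had been given to irradiated recipients, with 1 Control, 2 Ezh2 KO and 2 Jarid2 KO libraries. No label gives the number of mice behind a library or the lineage antibodies of the sort. Reads were counted at the 3′ end, which does not check the deletion of the floxed exons.

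A B cell precursor first rearranges its immunoglobulin heavy chain gene and tests the product before it has a light chain. The mu heavy chain, the secreted or membrane product of the Ighm constant region, pairs with a surrogate light chain made of a VpreB protein (Vpreb1 or Vpreb2) and lambda 5 (Igll1). Together with the signalling subunits Igalpha (Cd79a) and Igbeta (Cd79b), this forms the pre-B cell receptor. Vpreb3 is a related protein that binds free heavy chains inside the cell, Mzb1 is a chaperone of the endoplasmic reticulum that assists immunoglobulin assembly, and Iglc1 is a constant region of the conventional lambda light chain, used only after the surrogate has been replaced. Ighm is also transcribed from an unrearranged locus in cells that make no heavy chain, and 3′ counts do not separate those transcripts.

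In the RefSeq annotation of GRCm38.p6, Vpreb1 lies at chr16:16868401-16869255, Igll1 at chr16:16860671-16863985 and Vpreb2 at chr16:17979445-17981274. Vpreb3 lies at chr10:75943024-75949657, Cd79a at chr7:24897497-24901858 and Cd79b at chr11:106311341-106314562. Ighm, a constant-region gene, lies at chr12:113418826-113422730 and Iglc1, another, at chr16:19061752-19062071. Sequence before an annotated start was matched for 5 of the 9 genes, and the sequences that follow are from the RefSeq promoter set of that build, each read 5′ to 3′ on the gene's own strand. Vpreb1 and Vpreb2 are shown first because reads that match both could bear on the values of either. They share a stretch of 106 bases with 104 identical (98.1%), in which capitals mark the differing bases. Counted from 1 at the 5′ end of the stretch, with the base of Vpreb1 first, these are G12T and C104T.
Vpreb1: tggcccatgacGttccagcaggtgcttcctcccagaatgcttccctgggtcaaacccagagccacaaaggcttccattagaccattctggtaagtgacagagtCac
Vpreb2: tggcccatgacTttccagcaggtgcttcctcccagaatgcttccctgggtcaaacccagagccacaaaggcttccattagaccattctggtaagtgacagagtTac
The Vpreb1 stretch is chr16:16869256-16869361 (minus strand) and ends at the base before the annotated start. The Vpreb2 stretch is chr16:17980315-17980420 (plus strand) and ends 144 bases before the start used in that set, which lies inside the annotated span of the gene. The longest run of identical bases was 91 between these 2 genes, against 7 to 11 in every other pair of the 5. The 106 bases run to the ends of the 250-base windows taken before the 2 starts, and whether the likeness reaches further was not compared. The transcripts themselves were not compared. Vpreb1 and Vpreb2 are known as close copies, and reads that match both can be split or dropped in counting, so values of each are to be read with that in mind.

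Igll1, Vpreb3 and Cd79a are shown because their levels moved with those of Vpreb1 across libraries, as described further on. Capitals mark the matches to the motifs searched on both strands: CAGGTG (an E-box), TGGGAA (the Ikaros core), ATTTGCAT (the octamer) and CCCNNGGG (the core of the palindrome that EBF1 binds).
Igll1: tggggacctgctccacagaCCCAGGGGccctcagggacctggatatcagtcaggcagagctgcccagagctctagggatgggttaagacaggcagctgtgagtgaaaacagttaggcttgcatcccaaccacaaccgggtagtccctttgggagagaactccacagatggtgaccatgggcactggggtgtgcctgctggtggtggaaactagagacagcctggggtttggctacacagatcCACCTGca
Vpreb3: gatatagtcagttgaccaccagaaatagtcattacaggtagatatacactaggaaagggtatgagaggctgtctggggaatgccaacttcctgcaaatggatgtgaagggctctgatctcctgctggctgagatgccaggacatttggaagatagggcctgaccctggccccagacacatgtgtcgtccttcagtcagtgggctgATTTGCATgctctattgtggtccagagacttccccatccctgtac
Cd79a: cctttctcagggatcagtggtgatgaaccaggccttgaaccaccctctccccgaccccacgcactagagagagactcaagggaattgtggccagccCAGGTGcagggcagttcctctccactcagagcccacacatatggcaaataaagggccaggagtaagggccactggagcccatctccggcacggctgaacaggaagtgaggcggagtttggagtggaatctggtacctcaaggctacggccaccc
These are the 250 bases before each start, at chr16:16863986-16864235 (minus strand) for Igll1, chr10:75948050-75948299 (plus strand) for Vpreb3 and chr7:24897247-24897496 (plus strand) for Cd79a. CAGGTG was found 8 bases before the start of Igll1 and 154 before that of Cd79a, and also within the stretch that Vpreb1 and Vpreb2 share, 88 and 232 bases before their starts. It is a common word, present in 17.2% of the 32851 stretches of this length in the set. ATTTGCAT was found 45 bases before the start of Vpreb3 and is present in 1.60% of all stretches, CCCNNGGG 231 bases before the start of Igll1 (11.8% of all), and TGGGAA in Vpreb2 alone of the 5 (21.6% of all). No overlap between motifs was seen, and a match says only that these letters are there.

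The 11 libraries held 4354 to 9208 kept cells and 67629053 to 126527222 kept UMIs (unique molecular identifiers, each standing for 1 captured transcript), with medians of 10764 to 17611 UMIs per cell. Over the limit of 10% mitochondrial UMIs lay 2.82% to 5.82% of barcodes at baseline. After transplantation the share was 43.4% in Control, 25.7% and 27.4% for Ezh2 KO, then 36.6% and 37.4% for Jarid2 KO, with Ezh2 KO lowest. With every barcode kept, 7 of the 9 genes passed as higher in transplant Ezh2 KO than in Control, the same number as under this limit. The share of all genes passing in that fit is not set beside it, so this count is no result about the 9 genes. What the unequal shares over the limit do to the differences was not tested. Cells of both sexes were present in the transplant Control (59.4% female by Xist and Y-linked UMIs) and Jarid2 KO libraries (48.3% and 49.9%). The Ezh2 KO libraries held 0.0163% and 0.0511% female cells. Cells of both sexes come from more than 1 animal, but no label says whether donors were pooled. Mpo, a granulocyte gene, was found in 92.6% to 96.9% of transplant cells without a member UMI and in 9.11% to 19.6% of such baseline cells, so levels are not compared between experiments. Pairs of libraries shared 4 to 31 cell barcodes.

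The surrogate light chain genes were higher in Ezh2 KO than in Jarid2 KO libraries in both experiments, and after transplantation also higher than in the Control library. In CPM, the counts summed over all kept cells and scaled to a common library total, Vpreb1 stood at 169 and 50.6 in the baseline Control libraries, 477 and 279 for Ezh2 KO, then 70.4 and 69.3 for Jarid2 KO. The Ezh2 KO libraries lay above all others, and the male Control library lay above the Jarid2 KO libraries while the female Control library lay below them. The difference of Ezh2 KO from Control was 1.96 ± 0.38 (log2 ± SE, 2 against 2 libraries) and did not pass the false discovery rate (FDR) of 0.05 in edgeR's quasi-likelihood test (FDR 0.062). Against Jarid2 KO the same gene differed by -2.35 ± 0.39 (Jarid2 KO minus Ezh2 KO, FDR 0.0394). A summed level does not tell fewer cells of a type from less RNA per cell, which the shares of positive cells given later address. After transplantation Vpreb1 stood at 4.11 CPM in Control, 112 and 89.1 for Ezh2 KO, then 8.85 and 12.1 for Jarid2 KO, with no overlap between groups. It was higher in Ezh2 KO than in Control by 4.53 ± 0.26 (FDR 0.000767) and lower in Jarid2 KO than in Ezh2 KO by -3.24 ± 0.17 (FDR 0.000325), while the difference of Jarid2 KO from Control, 1.29 ± 0.22, did not pass (FDR 0.117).

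Igll1, the lambda 5 chain, took the same order. Its level was 80.3 and 22.1 CPM in baseline Control, 248 and 140.1 for Ezh2 KO, then 33.3 and 28.9 for Jarid2 KO. The Jarid2 KO libraries lay between the Control libraries. After transplantation its levels were 1.04 CPM in Control, 58.7 and 42.0 for Ezh2 KO, then 3.94 and 6.15 for Jarid2 KO. Vpreb2, whose counts carry the limit named above, was at 18.8 and 5.01 CPM in baseline Control, 60.3 and 36.7 for Ezh2 KO, then 7.69 and 6.70 for Jarid2 KO. It passed against Control at baseline (2.23 ± 0.37, FDR 0.0483), and after transplantation it ran from 0.296 CPM in Control to 19.2 and 13.4 in Ezh2 KO, with 0.585 and 1.38 in Jarid2 KO. Vpreb3 was at 165 and 54.0 CPM in baseline Control, 573 and 332 for Ezh2 KO, then 64.8 and 71.1 for Jarid2 KO. Its transplant levels were 1.57 CPM in Control, 104.5 and 71.2 for Ezh2 KO, then 6.70 and 6.32 for Jarid2 KO. For all 4 genes the Ezh2 KO libraries of an experiment lay above every other library of it. Here and elsewhere, the share of all genes with such an order was not counted, so orders of libraries are a description.

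**Figure D1:**
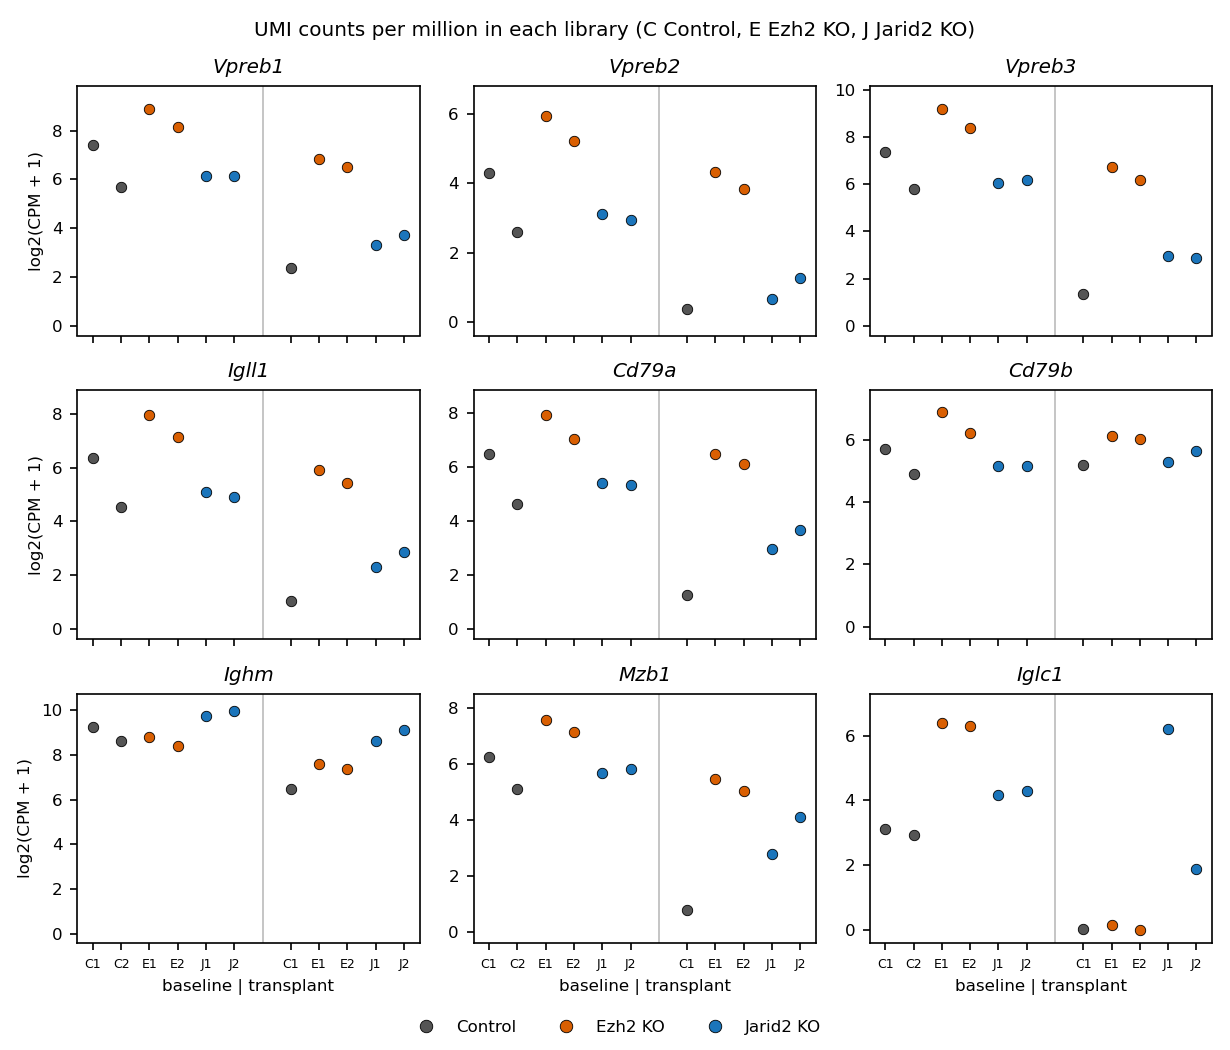
Level of each of the 9 genes in each library, as log2(CPM + 1), with baseline libraries left of the grey line and transplant libraries right of it; each point is 1 library, coloured by genotype. In the panels of Vpreb1, Vpreb2, Vpreb3, Igll1 and Cd79a both Ezh2 KO libraries lie above all other libraries of the same experiment, while in the panel of Ighm the baseline Jarid2 KO libraries, at 853 and 994 CPM, are highest.

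Of the signalling subunits, Cd79a followed the surrogate light chain and Cd79b only in part. Cd79a stood at 87.1 and 23.4 CPM in baseline Control, 240.2 and 129 for Ezh2 KO, then 41.2 and 38.4 for Jarid2 KO, and after transplantation at 1.35 in Control, 88.1 and 68.0 for Ezh2 KO, then 6.64 and 11.5 for Jarid2 KO. Its difference of Ezh2 KO from Control was 1.93 ± 0.40 at baseline (FDR 0.0664, not passed) and 5.78 ± 0.40 after transplantation (FDR 0.00139). Cd79b stood at 51.01 and 28.7 CPM in baseline Control, 118 and 72.4 for Ezh2 KO, then 34.8 and 34.2 for Jarid2 KO. Its range was narrower after transplantation, with 34.97 CPM in Control, 67.8 and 64.1 for Ezh2 KO, then 37.8 and 48.8 for Jarid2 KO. Ezh2 KO libraries were again highest, and Cd79b passed against Control in both experiments (1.31 ± 0.20, FDR 0.0409, and 0.83 ± 0.14, FDR 0.0251). Much of the Cd79b signal lay outside cells with B lineage markers, which held 85.6% of its UMIs in the male baseline Ezh2 KO library but 1.06% in the transplant Control library.

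Ighm took another order. Its level was 613 and 392 CPM in baseline Control, 441 and 332 for Ezh2 KO, then 853 and 994 for Jarid2 KO, so that Jarid2 KO was highest and Control and Ezh2 KO overlapped. After transplantation it was at 88.6 CPM in Control, 193 and 166 for Ezh2 KO, then 388 and 552 for Jarid2 KO, with Jarid2 KO again highest. Jarid2 KO exceeded Ezh2 KO by 1.26 ± 0.20 at baseline (FDR 0.0383) and by 1.40 ± 0.17 after transplantation (FDR 0.00488). Against the transplant Control, Jarid2 KO was higher by 2.34 ± 0.24 (FDR 0.024). These calls rested on few cells. Cells in which immunoglobulin constant-region genes and Jchain made up over 1% of UMIs, called immunoglobulin-rich here, numbered 40 and 67 in baseline Control, 51 and 91 for Ezh2 KO, then 75 and 114 for Jarid2 KO. They held 79.2% and 82.5%, 47.5% and 56.9%, and 88.2% and 92.4% of Ighm UMIs in those libraries. In the transplant libraries there were 0 such cells in Control, 1 and 0 for Ezh2 KO, then 16 and 20 for Jarid2 KO, and the Jarid2 KO ones held 71.2% and 75.4% of Ighm UMIs.

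Without the immunoglobulin-rich cells, Ighm too was highest in the Ezh2 KO libraries. It then stood at 129 and 68.9 CPM in baseline Control, 233 and 145 for Ezh2 KO, then 102 and 76.7 for Jarid2 KO, with Ezh2 KO above the rest. The fitted log2 difference was 1.00 for Ezh2 KO minus Control and -1.07 for Jarid2 KO minus Ezh2 KO, opposite in sign to those over all cells. Ighm and Iglc1 are among the genes that define the cells left out, so these values describe the remaining cells and are no test. After transplantation Ighm was at 88.6 CPM in Control, 167 and 166 for Ezh2 KO, then 112 and 136 for Jarid2 KO, and its difference of Jarid2 KO from Ezh2 KO was -0.40. Whether immunoglobulin-rich cells belong to the sorted population or passed the gate by other means was not tested.

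Mzb1 was split between the same kinds of cell. Its level was 75.8 and 33.1 CPM in baseline Control, 190.4 and 139.9 for Ezh2 KO, then 50.3 and 55.3 for Jarid2 KO, and after transplantation 0.739 in Control, 43.5 and 31.5 for Ezh2 KO, then 5.90 and 16.3 for Jarid2 KO. Ezh2 KO was above every other library of its experiment. Immunoglobulin-rich cells held 7.41% and 17.1% of Mzb1 UMIs in baseline Ezh2 KO, 48.5% and 58.0% in baseline Jarid2 KO and 63.1% and 81.7% in transplant Jarid2 KO. Without them the transplant Jarid2 KO levels were 2.18 and 2.99 CPM, and the difference of Jarid2 KO from Ezh2 KO there went from -1.77 ± 0.40 to -3.84.

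Iglc1 was set by a handful of cells. Its level was 7.61 and 6.66 CPM in baseline Control, 82.1 and 77.3 for Ezh2 KO, then 17.1 and 18.8 for Jarid2 KO, and it passed against Control in both knockouts (3.53 ± 0.09, FDR 0.00188, and 1.36 ± 0.09, FDR 0.049). In the baseline Ezh2 KO libraries 1 cell each held 86.2% and 85.9% of all Iglc1 UMIs, and without that cell the levels were 11.4 and 10.9 CPM. In baseline Jarid2 KO the top cell held 33.3% and 9.94%. After transplantation Control had 2 UMIs, Ezh2 KO 12 and 0, and Jarid2 KO 6732 (72.9 CPM) and 233 (2.72 CPM), and 1 cell held 91.9% of the 6732. In the second Ezh2 KO library 0 of 5867 cells had a UMI, which allows a share of cells with a UMI of up to 0.0511% (3 cells, counting error only). Immunoglobulin-rich cells, which Iglc1 helps to define, held 93.4% to 98.7% of its UMIs in every library with over 100 of them.

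**Figure D2:**
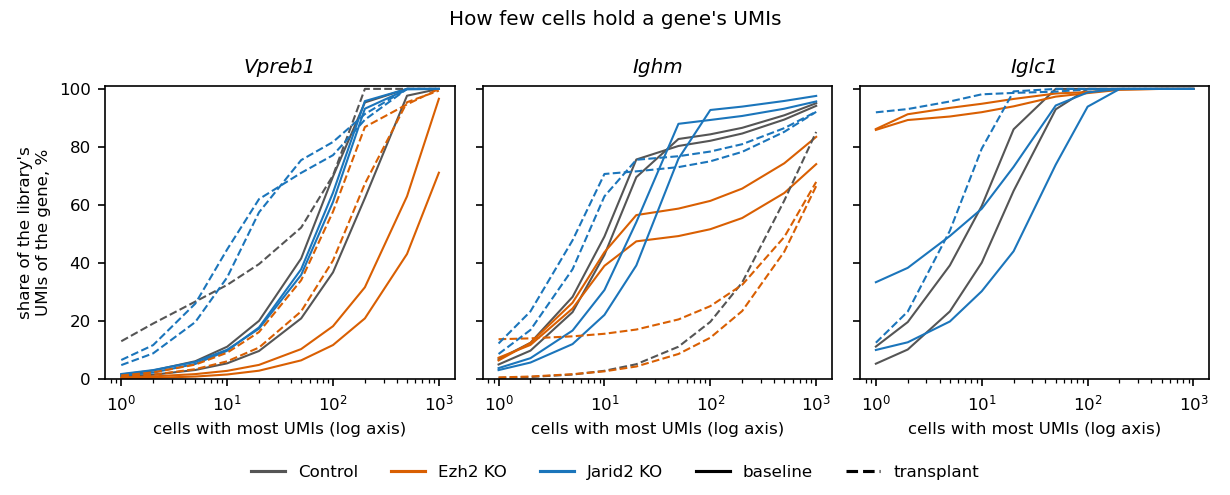
Share of a library's UMIs of Vpreb1, Ighm and Iglc1 (vertical axis, percent) held by the cells with the most UMIs of that gene (horizontal axis, number of cells, log scale), each line 1 library with at least 100 UMIs of the gene, solid for baseline and dashed for transplant. The Vpreb1 lines rise gradually, with 0.162% to 1.65% in the top cell of the baseline libraries, whereas the Iglc1 lines of both baseline Ezh2 KO libraries start at 86.2% and 85.9%.

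Counted over the 9 genes at baseline, 3 passed as higher in Ezh2 KO than in Control (Vpreb2, Cd79b and Iglc1), where 3.47% of 18177 genes tested passed, 2.81% as higher. The median log2 difference of the 9 was 1.96, against -0.00 over all genes tested. Between Jarid2 KO and Ezh2 KO all 9 passed (FDR 0.00242 to 0.0493), 8 lower and Ighm higher in Jarid2 KO, where 5.91% of genes passed (4.42% lower, 1.49% higher), with medians of -2.17 and 0.01. Between Jarid2 KO and Control 1 passed, Iglc1, where 0.0330% of genes passed, and without immunoglobulin-rich cells 0 did. These counts moved with the libraries used. Here and later, some counts under other settings have no share of all genes beside them. Such counts show how far the main ones vary and are no result about the 9 genes. The 3 genes higher in Ezh2 KO than in Control became 1 without either Ezh2 KO library, 8 without the male Control library or without either Jarid2 KO library, 8 in DESeq2 and 1 with no term for sex. The 9 between the knockouts became 1 without the male and 2 without the female Ezh2 KO library, 3 without the male Jarid2 KO library, and 1 with no term for sex. With 1 library for each sex and genotype, sex and the other differences between replicates cannot be told apart.

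After transplantation 7 of the 9 genes passed as higher in Ezh2 KO than in Control, all but Ighm and Iglc1, where 4.84% of 15758 genes passed (3.40% higher), and the median of the 9 was 5.53 against 0.01 over all. All 9 passed between Jarid2 KO and Ezh2 KO (12.0% of genes passed, 7.67% lower and 4.37% higher), 7 lower and Ighm and Iglc1 higher in Jarid2 KO. With 12 and 0 Iglc1 UMIs in Ezh2 KO against 6732 and 233 in Jarid2 KO, Iglc1 was tested only through Jarid2 KO. Its call here is no test. Between Jarid2 KO and Control 1 passed, Ighm (0.336% of genes passed, 0.209% higher), and the median of the 9 was 2.22. That last count was 6 in DESeq2 and 4 to 6 when any knockout library was left out, and 0 without immunoglobulin-rich cells or with male cells only. With male cells only, the other counts were 8 and 8. A comparison with Control rests here on 1 library, assumed to vary like the knockout libraries, and the fits share that library and the Ezh2 KO libraries between comparisons.

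Between baseline Ezh2 KO and Control, the share of cells with a transcript differed by more than the number of transcripts in those cells for 6 of the 9 genes. These were the surrogate light chain genes, Cd79a and Mzb1. The share of all genes with this order was not counted. A positive cell holds at least 1 UMI, which limits how far its level can fall. Each cell was thinned to 5000 UMIs, leaving out 273 to 721 shallower cells per library. Vpreb1 was then found in 8.43% and 3.21% of cells in baseline Control, 21.7% and 12.03% in Ezh2 KO, then 4.30% and 4.46% in Jarid2 KO, against 12.4%, 5.50%, 29.6%, 17.1%, 6.23% and 7.25% in the same order before thinning. Cells with a Vpreb1 UMI held on average 8.82 and 8.16 UMIs in Control, 11.5 and 10.9 for Ezh2 KO, then 6.91 and 8.24 for Jarid2 KO. Neither measure of Ezh2 KO overlapped with Control. Of the positive cells, 30.9% and 43.9% held only 1 UMI in Control, 16.7% and 21.4% in Ezh2 KO, then 40.8% and 38.8% in Jarid2 KO. Taken as means of the log values, Ezh2 KO had 3.104-fold more positive cells than Control and 1.32-fold more UMIs in each of them.

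The other surrogate light chain genes and Cd79a divided alike. Igll1 was in 6.07% and 1.85% of Control cells, 19.1% and 10.2% of Ezh2 KO cells and 2.77% and 2.90% of Jarid2 KO cells, with 5.38 and 6.12, 6.59 and 6.28, and 4.96 and 5.33 UMIs in each positive cell. The fold in share was 4.17 and the fold in level 1.12. Vpreb3 had 3.82-fold more positive cells and 1.28-fold more UMIs in each, Vpreb2 4.46-fold and 1.17-fold, and Cd79a 3.61-fold and 1.20-fold. Mzb1 had 3.40-fold more positive cells and 1.03-fold more UMIs in each, with levels that overlapped between groups. Cd79b divided evenly, with 1.58-fold and 1.59-fold. Ighm had 1.47-fold more positive cells in Ezh2 KO, with shares that overlapped, and 0.572-fold the UMIs in each. Iglc1 went the other way, with 2.28-fold in share and 4.35-fold in level, where 1 cell held 86.2% and 85.9% of its UMIs in the Ezh2 KO libraries.

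Tested as numbers of positive cells, 8 of 9 genes were higher in baseline Ezh2 KO than in Control (all but Cd79b, FDR 0.056), where 4.56% of 16331 genes passed (2.51% higher), and 8 were lower in Jarid2 KO than in Ezh2 KO (all but Iglc1), where 5.51% passed (3.94% lower). Iglc1 is among the 8 against Control, but its share in the male Ezh2 KO library did not stand above background, as given further on. Vpreb1 changed by 1.58 ± 0.27 (FDR 0.041) and Igll1 by 1.95 ± 0.31 (FDR 0.0366) against Control. These counts fell to 0 and 1 without the male Ezh2 KO library, to 4 against Control without the female Control library, to 0 between the knockouts without the male Jarid2 KO library, and to 0 and 0 with no term for sex. For Jarid2 KO against Control edgeR passed 0 of the 9 genes and 0 of all genes, with 1 and 2015 at an unadjusted p under 0.05; without either Ezh2 KO library 1 member passed. The level in positive cells passed for 0 of the 9 genes in each baseline comparison in limma, where 0.00% of 14817 genes passed. At an unadjusted p under 0.05 were 3 of the 9 and 1661 of all genes for Ezh2 KO against Control, 1 and 1181 for Jarid2 KO against Control, and 5 and 1765 between the knockouts. Without weights 1 member passed against Control and 1 between the knockouts.

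**Figure D3:**
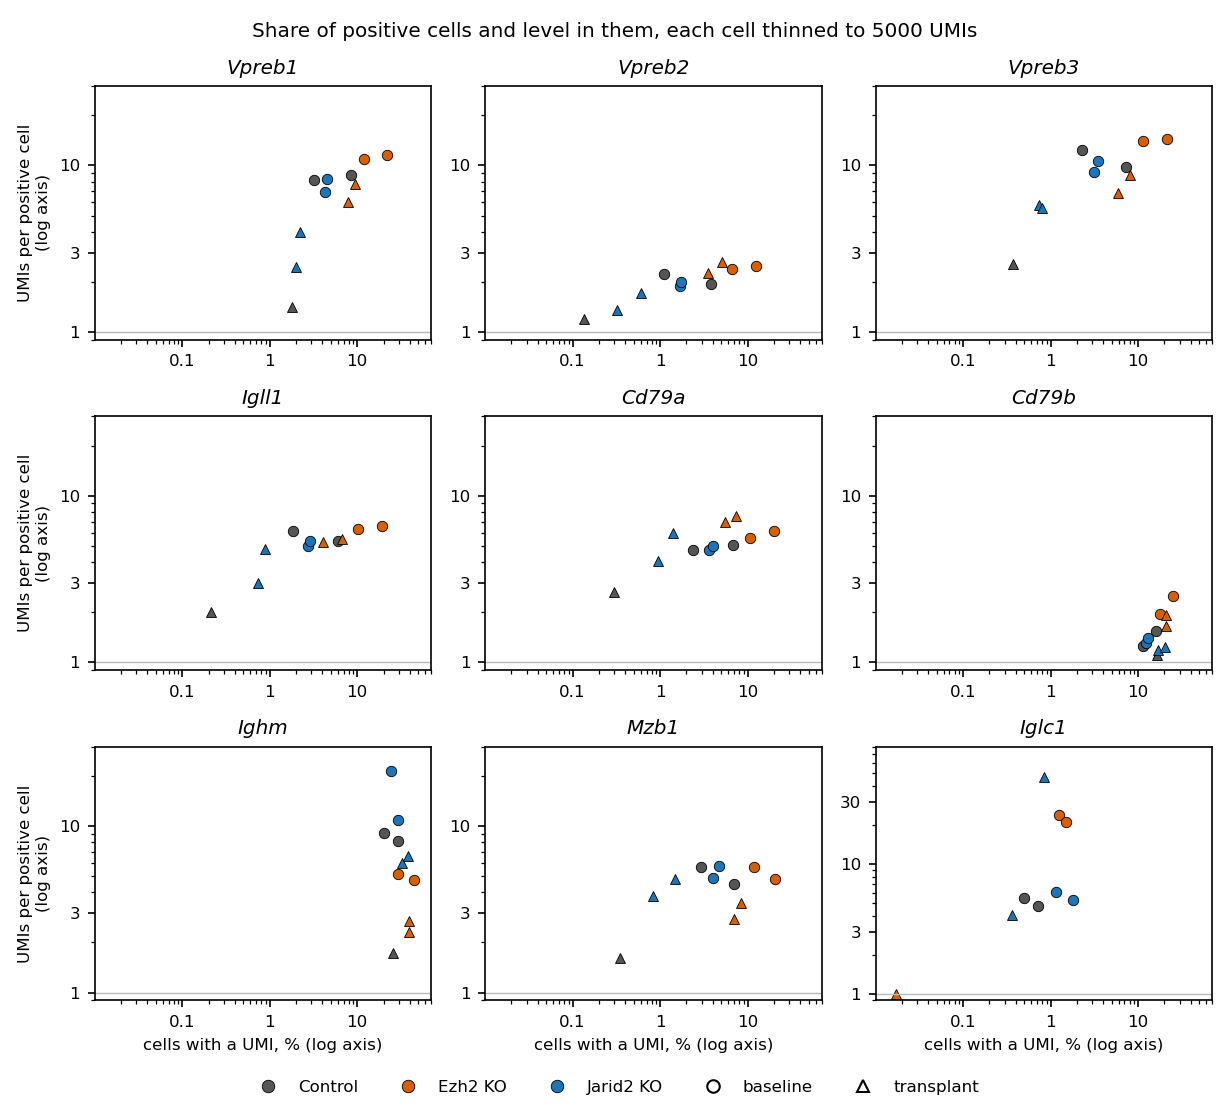
Share of cells with at least 1 UMI of the gene (horizontal axis, percent, log scale) against the mean UMIs in those cells (vertical axis, log scale), each cell thinned to 5000 UMIs; each point is 1 library, circles baseline and triangles transplant, and libraries with 0 positive cells are left out. For Vpreb1 the circles spread from 3.21% to 21.7% along the horizontal axis but only from 6.91 to 11.5 UMIs along the vertical one.

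After transplantation Vpreb1 was found in 1.79% of Control cells, 9.48% and 7.77% of Ezh2 KO cells and 1.99% and 2.24% of Jarid2 KO cells, against 4.20%, 17.4%, 15.1%, 5.66% and 5.76% before thinning. The mean UMIs in positive cells were 1.42, 7.77 and 6.002, and 2.47 and 3.97. In the Control library 92.5% of the positive cells held 1 UMI. From Control to Ezh2 KO, share and level of Vpreb1 differed 4.78-fold and 4.82-fold. The folds were 31.6 and 2.03 for Vpreb2, 18.6 and 3.00 for Vpreb3, 24.3 and 2.69 for Igll1, 21.7 and 2.74 for Cd79a and 21.9 and 1.91 for Mzb1. For Cd79b they were 1.26 and 1.60, and for Ighm 1.52 and 1.44. Of Vpreb2, Vpreb3, Igll1, Cd79a and Mzb1 the Control library held 5 to 14 positive cells. Of the 9 genes, 6 had more positive cells in Ezh2 KO than in Control (1.09% of 13671 genes passed, 0.885% higher) and 6 had fewer in Jarid2 KO than in Ezh2 KO, where Iglc1 had more (4.64% passed, 3.33% fewer and 1.32% more). Those 6 were Vpreb1, Vpreb2, Vpreb3, Igll1, Cd79a and Mzb1. Iglc1 had 1 and 0 positive cells in Ezh2 KO against 37 and 17 in Jarid2 KO. It was tested only through the group where it is high, so its call is no test. Without the second Jarid2 KO library 3 passed against Control, and without either Jarid2 KO library 1 passed between the knockouts. In the comparison of Jarid2 KO with Control edgeR passed 0 of 9 and 0 of all genes, with 5 and 729 at an unadjusted p under 0.05; unthinned, 4 members passed, and without either Ezh2 KO library 2 did. The level in positive cells could be tested for 6 of the 9 genes, since Vpreb2, Igll1 and Iglc1 had under 10 positive cells in a library, and limma passed 0 of them in each comparison, with 0.00% of 12342 genes passed. At an unadjusted p under 0.05 were 1 of the 6 and 650 genes for Ezh2 KO against Control, 1 and 464 for Jarid2 KO against Control, and 2 and 938 between the knockouts.

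Some shares of positive cells were no higher than among cells of another lineage. Cells with at least 3 UMIs of megakaryocyte and erythroid genes were taken as background, on the assumption that they lack these transcripts. They numbered 79 to 674 per library and had median depths of 13128 to 21424 UMIs, against 10472 to 17588.5 in the other cells. Thinned, 0.735% of them had a Vpreb1 UMI in the transplant Control library against 1.83% of the other cells, and in the transplant Jarid2 KO libraries 3.70% and 2.53% against 1.94% and 2.24%, so the Jarid2 KO shares there do not stand above background. For Igll1 the background share was 0.735% in the transplant Control library and 1.48% in the first Jarid2 KO library, above the 0.194% and 0.710% of their other cells, while in the second Jarid2 KO library it was 0% against 0.891%. These background shares come from 136, 135 and 79 cells, so each rests on few cells. In the transplant Ezh2 KO libraries the Vpreb1 background was 4.25% and 3.17% against 9.86% and 7.99%. At baseline it was 1.28% and 1.66% against 8.80% and 3.36% in Control, 3.92% and 2.82% against 22.8% and 12.4% for Ezh2 KO, then 0.741% and 1.68% against 4.45% and 4.68% for Jarid2 KO. Before thinning, the female Control library had 6.97% of background cells positive against 5.37% of other cells. The Vpreb1 shares and folds given above are without subtraction of this background, so a part of each share is at background level. In the baseline Ezh2 KO libraries the background share of Igll1 was 0.980% and 0.565% against 20.3% and 10.6% of other cells. Iglc1 was at 1.18% and 0.847% of background cells in the baseline Ezh2 KO libraries after thinning, against 1.24% and 1.52% of other cells, so in the male library its share of positive cells does not stand above background. For Cd79b the background after transplantation was 17.6% against 16.5% of other cells in Control, 13.5% and 17.5% against 21.2% in both Ezh2 KO libraries, then 16.3% and 19.0% against 17.0% and 20.6% in Jarid2 KO. The Control and Jarid2 KO shares of Cd79b there are not read as above those of background cells. In transplant Control, Cd79b was at 29.1 CPM in background cells and 34.7 CPM outside B lineage-marked cells, against 0 and 0.267 CPM for Cd79a. Whether background cells transcribe Cd79b themselves was not tested, so for this gene they may not measure background. At baseline the background shares of Cd79b were 4.84% to 12.1% against 12.04% to 26.3%, lower in each of the 6 libraries. For Ighm, background shares of 3.63% to 16.5% stood against 22.0% to 46.8%, lower in each of the 11 libraries. Not all background cells held single UMIs: in the female baseline Jarid2 KO library 7 of them held 190 Mzb1 UMIs and 96 held 926 Ighm UMIs, and in the first transplant Ezh2 KO library 16 held 85 Cd79a UMIs. What put these UMIs in background cells was not tested.

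At baseline the transcripts of the surrogate light chain lay almost wholly in cells with B lineage markers. After transplantation they did so less in Control, and in Jarid2 KO mainly for Vpreb1 and Igll1. Cells with UMIs of at least 2 of 5 B lineage genes, Ebf1 and Pax5 among them and none of the 9, are called B-marked here. They made up 8.52% and 3.24% of kept cells in baseline Control, 24.6% and 13.6% in Ezh2 KO, then 4.01% and 4.72% in Jarid2 KO. After transplantation they made up 0.253% in Control (11 cells, exact binomial 95% interval 0.126% to 0.452%, counting error only), 7.90% and 5.86% in Ezh2 KO, then 1.28% and 1.55% in Jarid2 KO. The shares of Ezh2 KO were the highest in each experiment. B-marked cells held 94.5% to 98.7% of the Vpreb1 UMIs and 98.3% to 99.0% of the Igll1 UMIs of the baseline libraries. After transplantation they held 25.5% of the Vpreb1 UMIs in Control, 94.0% and 90.7% in Ezh2 KO, then 65.5% and 72.7% in Jarid2 KO, and 54.3% of the Igll1 UMIs in Control. In transplant Jarid2 KO they held 84.9% and 89.8% of the Igll1 UMIs, 91.4% and 93.3% of Vpreb3 and 94.4% and 91.5% of Vpreb2. For Vpreb2 the Ezh2 KO values were 94.3% and 87.3%. Among cells that were not B-marked, a cell with a Vpreb1 UMI had 1.00 to 1.08 of them after thinning.

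Within baseline B-marked cells the genotypes were closer for the surrogate light chain genes. For Ighm they were further apart with immunoglobulin-rich cells included. After thinning, Vpreb1 was in 77.8% and 69.3% of B-marked cells of baseline Control, 84.8% and 84.9% of Ezh2 KO and 71.1% and 67.2% of Jarid2 KO, at 12.1 and 13.9, 13.4 and 13.5, and 10.7 and 12.8 UMIs in each positive cell. The levels of Control and Ezh2 KO overlapped, and the shares did not. Summed over B-marked cells and fitted in edgeR, 6 of the 9 genes were higher in Ezh2 KO than in Control and Ighm was lower (5.77% of 12477 genes passed, 4.06% higher and 1.72% lower). Vpreb1 differed by 0.33 ± 0.07 (FDR 0.0358), Igll1 by 0.46 ± 0.08 (FDR 0.0137), Vpreb2 by 0.60 ± 0.10 (FDR 0.00981) and Vpreb3 by 0.53 ± 0.08 (FDR 0.00568), each a fraction of its difference over all cells. Without the male Control library 3 genes passed, and without the female one 2. Ighm differed by -2.17 ± 0.19 (FDR 0.000422) and Iglc1 by 2.06 ± 0.24 (FDR 0.00166). Without immunoglobulin-rich cells the fitted Iglc1 difference was -0.45, a value that the definition of those cells bears on.

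Comparing the knockouts in these cells, 5 genes were lower in Jarid2 KO and Ighm higher (8.98% of genes passed, 5.19% lower and 3.78% higher). Vpreb1 differed by -0.44 ± 0.07, Igll1 by -0.60 ± 0.08 and Ighm by 3.38 ± 0.20, and with B-marked cells set at 1 marker gene 2 genes passed.

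Immunoglobulin-rich cells counted here too, since some were B-marked. Without them 5 genes were higher in Ezh2 KO than in Control: Vpreb2 (0.51), Vpreb3 (0.44), Igll1 (0.37), Cd79b (0.52) and Mzb1 (0.34), the last of which had not passed with them (0.06, FDR 0.801). In that fit 8.22% of 12150 genes passed, 5.98% as higher. Vpreb1, at 1828 and 2170 CPM of B-marked cells in Control, 2117 and 2392 for Ezh2 KO, then 1759 and 2174 for Jarid2 KO, overlapped between groups and did not pass (0.24, FDR 0.095). Igll1, at 883 and 989, 1105 and 1208, and 856 and 940.1 CPM, kept Ezh2 KO apart from the rest. Ighm was then at 618 and 640, 676 and 705, and 568 and 613 CPM, and its fitted difference was 0.20. Between Jarid2 KO and Control 0 of the 9 passed in edgeR with all B-marked cells (0.0561% of genes passed, with 1154 genes and 3 members at an unadjusted p under 0.05), 1 to 3 when any 1 library was left out, and 2 or 1 with B-marked cells set at 1 or 3 marker genes.

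After transplantation only the knockouts had enough B-marked cells for a test, 486 and 344 for Ezh2 KO, then 65 and 78 for Jarid2 KO. Without immunoglobulin-rich cells, Vpreb1 was at 1655 and 1661 CPM of B-marked cells for Ezh2 KO against 651 and 976 for Jarid2 KO, with 542 in the 11 cells of Control. Igll1 was at 892 and 827, 376 and 614, and 290 in that order. The Jarid2 KO libraries lay below those of Ezh2 KO for both genes. Over all B-marked cells 5 genes were lower in Jarid2 KO than in Ezh2 KO and Ighm and Iglc1 higher, where 6.89% of 10196 genes passed (3.73% lower, 3.16% higher): Vpreb1 by -1.36 ± 0.20 (FDR 0.00489), Vpreb2 by -1.73 ± 0.25, Vpreb3 by -1.44 ± 0.21, Igll1 by -1.14 ± 0.20 and Cd79a by -0.89 ± 0.22 (FDR 0.0443). With B-marked cells set at 3 marker genes 3 passed. Among all thinned B-marked cells, Vpreb1 was in 39.2% and 47.1% for Jarid2 KO against 78.3% and 74.1% for Ezh2 KO. Its positive cells held 7.4 and 10.7 UMIs against 12.2 and 11.8. Igll1 was in 37.3% and 42.6% against 75.7% and 68.4%, with levels that overlapped (4.37 and 6.38 against 6.41 and 6.32). The summed differences above include B-marked cells without the transcript, and share and level were not tested apart in these cells. Iglc1 had 11 and 0 UMIs in B-marked cells of Ezh2 KO against 366 and 183 in Jarid2 KO. It was tested there only through the group where it is high, so its call is no test.

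**Figure D4:**
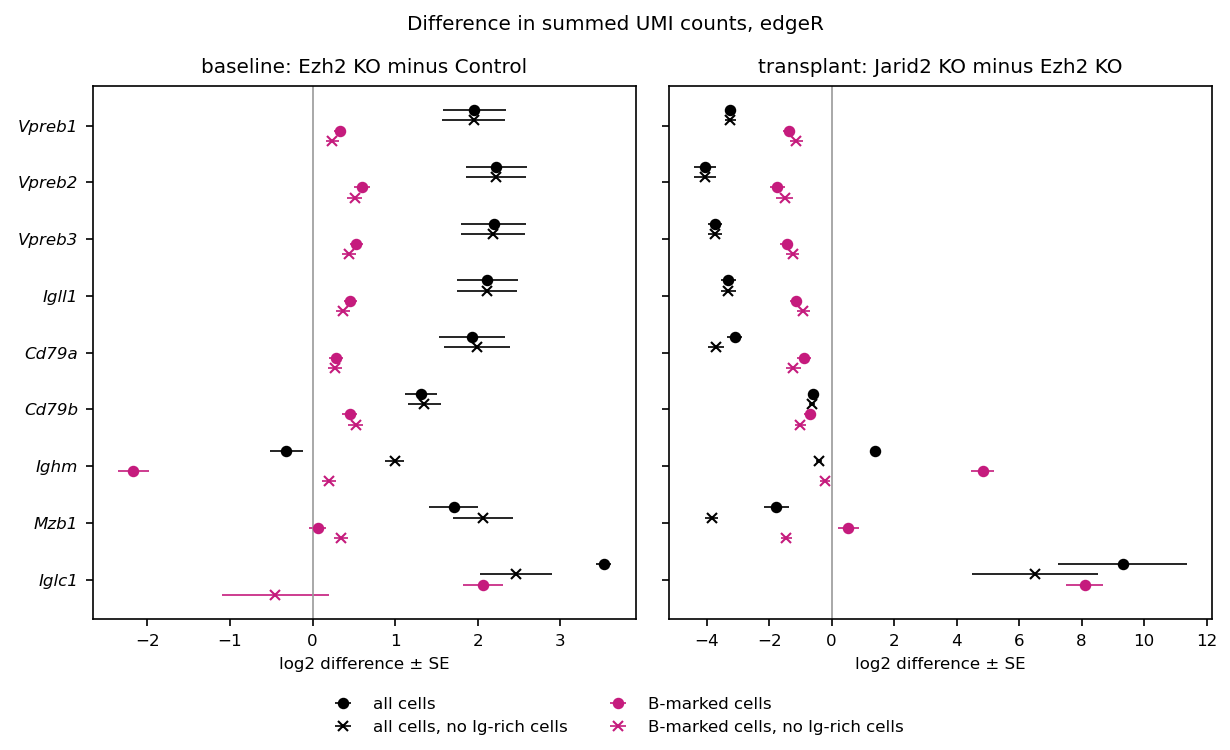
Log2 difference of summed counts (horizontal axis, points with SE from edgeR) for each gene, for baseline Ezh2 KO minus Control (left) and transplant Jarid2 KO minus Ezh2 KO (right), over all cells (black) and over B-marked cells (magenta), with (circles) and without (crosses) immunoglobulin-rich cells. At baseline the black points of the surrogate light chain genes lie near 2 and the magenta ones between 0.24 and 0.60, and Ighm moves from -2.17 to 0.20 within B-marked cells when immunoglobulin-rich cells are left out.

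The genes were found together in the same cells. Of baseline cells with an Igll1 UMI after thinning, 90.4% to 95.7% also had one of Vpreb1, 89.9% to 94.9% one of Vpreb3 and 90.4% to 94.9% one of Cd79a, while 0% to 1.38% had one of Iglc1. In all thinned baseline cells Vpreb1 was in 3.21% to 21.7%. Of cells with an Ighm UMI, 7.70% to 39.4% had one of Igll1, with the Ezh2 KO libraries highest. A Vpreb1 or Vpreb2 UMI together with Igll1, Cd79a, Cd79b and Ighm, the parts of the whole receptor, was found in 403 and 165 cells of baseline Control, 1750 and 1023 of Ezh2 KO and 185 and 207 of Jarid2 KO. After transplantation it was found in 4 cells of Control, 374 and 227 of Ezh2 KO and 21 and 34 of Jarid2 KO. All 9 genes were found in 33 and 16 cells of baseline Ezh2 KO, in 0 or 1 cell of each other baseline library and in 0 transplant cells. In those Ezh2 KO libraries 3.09% and 2.75% of background cells had an Iglc1 UMI before thinning, against 2.41% and 2.46% of other cells, so these 33 and 16 cells are not read as expression of Iglc1.

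Cells with UMIs of at least 3 of the 9 genes after thinning were set beside cells with 0 of the 9, as a description with no test. They numbered 183 to 1633 in the baseline libraries and 11 to 447 in the transplant ones. Ebf1, the factor that commits cells to the B lineage, was in 73.3% to 93.9% of them at baseline against 0.710% to 6.63% of cells with 0 of the 9 genes. Dntt, which adds bases at immunoglobulin joints, was in 60.7% to 88.4% against 10.5% to 20.8%. Rag1, of the recombinase, was in 21.5% to 40.2% against 0.0703% to 0.461%, and Il7r, the interleukin 7 receptor, in 49.1% to 71.1% against 0.384% to 1.87%. Mki67, a gene of dividing cells, was in 53.0% to 68.3% against 18.9% to 24.7% of cells with 0 of the 9. At baseline a UMI of any of the stem cell genes Procr, Hlf, Mecom, Slamf1, Ly6a and Kit was in 35.7% to 49.5% of them, against 96.6% to 98.2% of cells with 0 of the 9. Mecom alone was in 4.72% to 9.55% against 83.0% to 86.8%, and Cd3e, of T cells, in 0%.

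Genes of later B cell stages were unevenly spread over these cells. Jchain, made by antibody-secreting cells, was in 8.54% and 25.1% of them in baseline Control, 6.19% and 12.7% in Ezh2 KO, then 24.9% and 32.6% in Jarid2 KO, and in 26.2% and 23.9% in transplant Jarid2 KO against 0% of the 11 Control cells. Among genes that did not define the immunoglobulin-rich cells, these carried Xbp1, a factor of secretory cells, in 71.6% to 100% of each library's cells, Sdc1 in 55% to 100%, Prdm1 in 47.8% to 100% and Igll1 in 0% to 5.49%. Ly6a, which encodes Sca1, was in 76.1% to 100% of them and Kit in 13.7% to 100%, the upper value from the 1 such cell of transplant Ezh2 KO. The myeloid gene Mpo was in 0.659% to 3.83% of the cells with at least 3 of the 9 genes at baseline and in 70.9% to 90.9% after transplantation, below its share in the cells with 0 of them in each experiment (9.11% to 19.6% and 92.6% to 96.9%).

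Antibodies were read in the same baseline cells, and here cells with at least 3 of the 9 genes were taken before thinning (292 to 2471 cells per library, against 1941 to 4063 with 0), which favours deeper cells. CD48, a marker gained by progenitors, was higher on them than on cells with 0 of the 9 by 2.17 ± 0.44 (mean difference in centred log2 ratio ± SD over 6 libraries), at median counts of 1492 to 2188 against 230 to 667. CD117, the c-Kit receptor of the gate, was lower by -1.09 ± 0.19, at 64 to 105 counts against 233 to 309. CD201 and CD150, carried by stem cells, were lower by -0.68 ± 0.28, at 23 to 38 counts against 56 to 80, and by -0.55 ± 0.24, at 9 to 24 counts against 16 to 27. In the Ezh2 KO libraries the CD150 medians were close, at 17 against 18 and 24 against 27. Centring over 6 antibodies makes the differences sum to 0 in each library, so a rise of CD48 lowers the others, and the ratios are relative to the panel. Each of these 4 moved in the same direction in 6 of 6 libraries, with p = 0.03125 in an exact sign-flip permutation test (two-sided, the smallest p that 6 libraries allow) and 0.0469 after Benjamini-Hochberg adjustment over 6 antibodies. CD135, the Flt3 receptor, differed by 0.10 ± 0.22 (higher in 4 of 6, adjusted exact p = 0.344) and the streptavidin tag on Sca1 by 0.05 ± 0.13 (higher in 4 of 6, adjusted exact p = 0.344). Their uncentred median counts were lower on these cells in 6 of 6 libraries, at 14 to 28 against 20 to 30 for CD135 and 322 to 406 against 400 to 486 for the tag. With at least 2 of the 9 genes CD135 was higher by 0.71 in 6 of 6 libraries and with at least 4 it differed by -0.16. Cells with at least 3 of the genes were deeper, with medians of 10191 to 14092.5 UMIs against 9994 to 11520, and the part of depth in these differences was not tested.

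**Figure D5:**
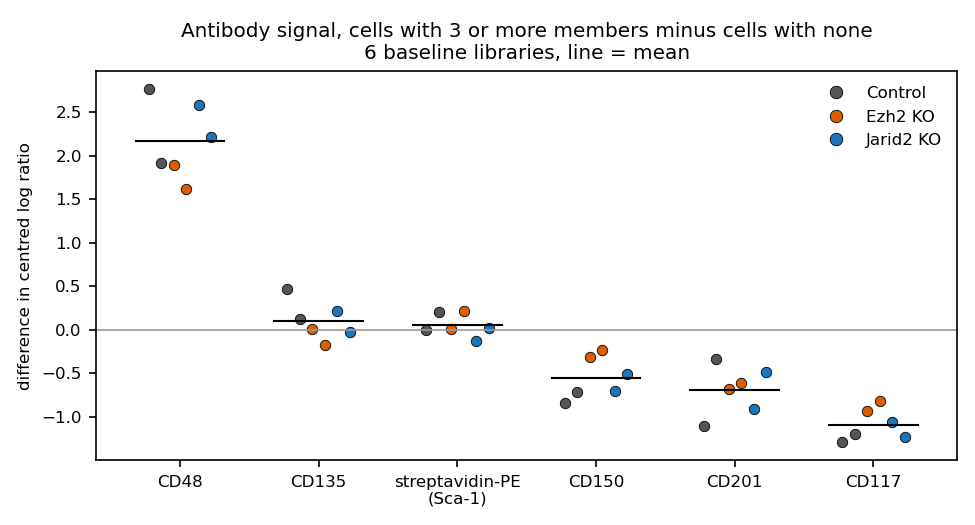
Difference in mean centred log2 ratio of each antibody between cells with at least 3 of the 9 genes and cells with 0 of them (vertical axis), each point 1 baseline library coloured by genotype and the line the mean over 6 libraries. All CD48 points lie between 1.62 and 2.77, all CD117 points between -1.29 and -0.81, and those of CD135 and the streptavidin tag lie on both sides of 0.

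Other genes of B lineage development were taken from 4 lists. Of 12 B lineage transcription factors 4 were higher in baseline Ezh2 KO than in Control (median 0.87), where 2.81% of all genes were, among them Pax5 (1.92 ± 0.32, FDR 0.0486), which fixes B cell identity, Irf4 (1.01 ± 0.14, FDR 0.037) and Bach2 (0.57 ± 0.09, FDR 0.0432). Of 10 genes of V(D)J recombination 2 were higher, Dntt (0.74 ± 0.07) and Hmgb2 (0.56 ± 0.08). Of 9 growth receptor genes 1 was higher, Il7r (1.60 ± 0.25). Of 9 other immunoglobulin genes tested 1 was higher, Ighd (1.61 ± 0.16). In each of these lists 0 were lower in edgeR for summed counts. Within B-marked cells, which Ebf1, Pax5 and Pou2af1 help to define, these calls were not found. There edgeR passed 0 of 12 factors (median -0.04), Dntt as lower (-0.38) in recombination, Flt3 as lower (-0.83) among the receptors, and of the other immunoglobulin genes Igha as higher (1.26) and Igkc (-1.21) and Ighg3 as lower, where 4.06% of all genes passed as higher and 1.72% as lower. For the same lists, Jarid2 KO against Control gave 0 genes of each in edgeR, with 5, 2, 3 and 3 at an unadjusted p under 0.05 in the same order, where 2096 of all 18177 genes were.

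After transplantation the same lists gave 7 of 12, 4 of 10, 1 of 9 and 2 of 8 genes higher in Ezh2 KO than in Control, and 0 lower, where 3.40% of all genes were higher and 1.44% lower. The leading ones were Lef1 (4.54 ± 0.22), Pax5 (5.93 ± 0.32) and Ebf1 (4.92 ± 0.35) among the factors, and Rag1 (3.72 ± 0.31), Dntt (1.93 ± 0.16) and Rag2 (1.38 ± 0.18) in recombination. Il7r (1.70 ± 0.18) was the growth receptor, and Ighg2b (4.81 ± 0.43) and Ighd (2.10 ± 0.19) were the immunoglobulin genes. In Jarid2 KO against Control 2 factors were higher, Pax5 (2.93 ± 0.35) and Lef1 (1.91 ± 0.22), and edgeR passed 0 genes of the other lists, with 3, 3 and 5 at an unadjusted p under 0.05, where 1314 of all 15758 genes were. Between the knockouts 5, 4, 1 and 1 were lower in Jarid2 KO at baseline and 6, 4, 1 and 2 after transplantation, where 2 other immunoglobulin genes were higher. Of all genes, 4.42% were lower at baseline, and 7.67% lower and 4.37% higher after transplantation. These comparisons share the Ezh2 KO and Control libraries.

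The genes most like the surrogate light chain over the 11 libraries were Lef1 (Pearson r 0.996), Akap12 (0.995), Pax5 (0.991), Cecr2 (0.989) and Ebf1 (0.986). Likeness was measured on log2(CPM + 1), centred within each experiment, against the mean of Vpreb1, Vpreb2, Vpreb3 and Igll1 among 8840 genes of at least 10 CPM on average. Libraries share genotype, experiment and the share of B-marked cells, so this is a description with no test. Cd79a reached 0.986, Mzb1 0.923 and Cd79b 0.871, while Ighm reached -0.21 and Iglc1 -0.03.

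Whether a genotype changed these genes by more after transplantation than at baseline was tested as an interaction in a fit over all 11 libraries. Between Ezh2 KO and Control 0 of the 9 passed in edgeR (0.734% of 18938 genes passed, 2153 genes and 7 members at an unadjusted p under 0.05), with Cd79a nearest at 3.85 ± 0.72 (FDR 0.065) and Vpreb1 at 2.58 ± 0.57 (FDR 0.0998). DESeq2 passed 7 of the 9, a fit with no filter on low counts 5, and the fit without the female baseline Control library or without either baseline Jarid2 KO library 4. Between Jarid2 KO and Control 0 passed in edgeR (0.0211% of genes, 1235 genes and 7 members at an unadjusted p under 0.05) and 2 in DESeq2, and without the second transplant Jarid2 KO library 1 passed. Between the knockouts Iglc1 passed (11.50 ± 2.23, FDR 0.0289, where 4.64% of genes passed, 1.79% as higher). The transplant Ezh2 KO libraries behind this value had 12 and 0 UMIs. Its transplant side is the Iglc1 comparison called no test above, so the interaction call is not read as a result. Without each library's top cell, transplant Iglc1 was at 5.89 and 2.38 CPM for Jarid2 KO against 0.00897 and 0 for Ezh2 KO. At baseline it was then at 11.4 and 16.9 CPM against 11.4 and 10.9. How far the single cells described above set the interaction was not tested. Of the 9 genes 0 passed without any 1 of the 4 Ezh2 KO libraries or the male baseline Jarid2 KO library, and 2 passed in DESeq2.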

How the data were processed

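Counts of UMIs per gene and cell were deposited by the authors as filtered matrices, made with Cell Ranger 7.2.0 (baseline) and 6.1.2 (transplant) per the file headers, whereas the submitters' processing notes name Cell Ranger 3.1.0, Seurat 3.0, Partek and mm10. Baseline matrices also hold antibody counts. Antibody counts were read from those matrices only, and the study's 6 CUT&Tag libraries were left aside.

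Cells were kept with at least 1000 UMIs, at least 500 genes and at most 10% mitochondrial UMIs. Scrublet scores (through scanpy 1.11.5) removed 6.13% to 8.30% of these per library as doublets, at 0.8% per 1000 barcodes, because its own threshold marked 0 to 176 cells. Cells were thinned to 5000 UMIs for shares and levels. Summed counts, numbers of positive cells and B-marked sums were fitted over all genes with edgeR 4.0.16 (quasi-likelihood). TMM was used except for numbers of positive cells, where the library size was the number of thinned cells. UMIs per positive cell were fitted with limma 3.58.1. Apart from the interaction, each fit was per experiment. Sex was a term at baseline. An adjusted p (Benjamini-Hochberg) under 0.05 was called. DESeq2 1.42.0 was an alternative. Antibody counts were taken as log2(count + 1), centred per cell. Scripts were tested on simulated data.

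The baseline replicate number is the sex of the mice in the labels, so it pairs libraries there, and replicate differences correlated between genotypes at 0.454 to 0.655. The 2 baseline libraries of a group come from animals of different sex, 1 library each, and for transplant libraries no label states separate animals, so p-values there measure only the spread between these samples, which may be technical. Intervals cover counting error only.

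The members and gene lists were chosen with earlier results of these data known. Genes outside the 9 were named as at most 3 of lowest FDR per list among those called against Control in summed counts, and as the 5 most like the surrogate light chain. Cell type markers, and genes called within B-marked cells, were named beside these. The immunoglobulin-rich class, the fit of transplant B-marked cells on the knockouts alone (the Control had 11) and the male-only fit were chosen after seeing the data. The planned fit of B-marked cells with the transplant Control was not run for that reason. A further list of signalling genes and 1 marker gene are not reported here.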

Additional observations from a re-analysis of the deposited data

Results flagged for a closer look

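For Iglc1, the difference of Jarid2 KO from Ezh2 KO was -2.17 (log2) at baseline and 9.31 after transplantation, and the difference between them, 11.50 ± 2.23, passed in edgeR's interaction test (FDR 0.0289). In the transplant Ezh2 KO libraries 12 and 0 Iglc1 UMIs were found. The transplant side of this difference was therefore called no test above, and the interaction call carries the same limit. Of the 6732 in the first transplant Jarid2 KO library 1 cell held 91.9%, and 1 cell held 86.2% and 85.9% in each baseline Ezh2 KO library.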

How the results depend on the processing

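Counts of the 9 genes passing FDR 0.05 moved as follows. The share of all genes passing in these fits is not set beside them, so they show only how the counts depend on processing. For summed baseline counts, Jarid2 KO against Control (1) gave 0 with doublets kept, with every barcode, without immunoglobulin-rich cells and with no replicate block, and 0 to 1 with a library left out (0 without the female Control, the female Jarid2 KO or either Ezh2 KO library). Ezh2 KO against Control (3) gave 8 in DESeq2, 8 with no filter, 7 without immunoglobulin-rich cells, 2 with doublets kept or every barcode, 1 with no replicate block and 1 to 8 with a library left out. Between the knockouts (9) it gave 6 with doublets kept or every barcode, 1 with no replicate block and 1 to 9 with a library left out. For positive baseline cells the counts with no replicate block were 0, 0 and 0 (from 0, 8 and 8), and with a library left out 0 to 1, 0 to 9 and 0 to 8. Levels in positive cells gave 1 for both Ezh2 KO comparisons with no weights.

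Within baseline B-marked cells, Jarid2 KO against Control (0) gave 2 with 1 marker gene, 1 with 3, and 1 to 3 with a library left out, Ezh2 KO against Control (7) gave 2 to 7, and the knockouts (6) gave 2 with 1 marker gene and 4 to 6 with a library left out. After transplantation, summed Jarid2 KO against Control (1) gave 6 in DESeq2, 6 with no filter, 0 with doublets kept, every barcode, no immunoglobulin-rich cells or male cells only, and 4 to 6 with a library left out. Ezh2 KO against Control (7) gave 6 to 8, and the knockouts (9) gave 6 with genes of at least 10 CPM and 6 to 9 with a library left out. Positive cells gave 4 unthinned and 0 to 2 for Jarid2 KO against Control (0), 3 to 6 for Ezh2 KO (6) and 1 to 7 between the knockouts (7). B-marked knockouts (7) gave 3 with 3 marker genes and 5 to 8 with a library left out. The difference between experiments gave 2 in DESeq2 and 0 to 1 for Jarid2 KO against Control (0), 7 in DESeq2, 5 with no filter and 0 to 4 for Ezh2 KO (0), and 2 in DESeq2, 0 with doublets kept or every barcode and 0 to 1 between the knockouts (1).

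Without immunoglobulin-rich cells Ighm turned from -0.32 to 1.00 (baseline Ezh2 KO against Control), from 1.26 to -1.07 (baseline knockouts) and from 1.40 to -0.40 (transplant knockouts), and within B-marked cells to 0.20, -0.24 and -0.21. Iglc1 turned to -0.45 against Control and to 1.00 between the baseline knockouts within B-marked cells, where 3 marker genes gave 1.86 and leaving out a library -0.88 to 0.062. Mzb1 there turned to -0.38, and to -0.015 with 3 marker genes, and between the transplant knockouts to -1.45, to -0.18 with 1 marker gene and to -0.28 to 1.05 with a library left out. CD135 gave 0.71 with at least 2 members and -0.16 with 4, and the streptavidin tag -0.19 with 2. Ighm and Iglc1 help to define the immunoglobulin-rich cells, so their values and calls without these are no test. Apart from cells left out by construction, the cause was not tested. The transplant replicate numbers share only a number (replicate differences correlated at -0.0536), and with a replicate block over the knockouts the counts were 9 summed, 6 for positive cells, 0 for levels and 7 within B-marked cells. With 11 B-marked cells, the transplant Control limits every statement on its level in such cells.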
